A study of Oryza sativa with 9 samples.

Results

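The proton pumps described here are 7 of the 57931 features in the table of root expression values. They were chosen by locus, as named pump genes and by no threshold on their values, though with earlier results of these data known, as 4 plasma membrane H+-ATPases and 3 vacuolar H+-pyrophosphatases (H+-PPases). The H+-ATPases are LOC_Os03g48310 (A1), LOC_Os07g09340 (A2), LOC_Os12g44150 (A3) and LOC_Os04g56160 (A7), which their locus numbers place on chromosomes 3, 7, 12 and 4. The H+-PPases are LOC_Os06g43660 and LOC_Os06g08080 on chromosome 6 and LOC_Os02g55890 on chromosome 2. All 7 were found in the table. The deposited values carry no annotation, so the full families could not be listed. Statements on a family's main locus, sum or shares cover only these 4 and 3 loci. A further locus annotated as an inorganic H+ pyrophosphatase, LOC_Os01g23580, is described apart and is in none of the sums. The tables of the study annotate LOC_Os06g08080 and LOC_Os02g55890 as inorganic H+ pyrophosphatases, and for the other 5 loci the identity comes from the list that chose them.

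Plasma membrane H+-ATPases spend ATP to push protons out of the cell. The voltage and pH difference they build drives nutrient uptake, and in salt it drives the exchange of sodium for protons at the plasma membrane. Vacuolar H+-PPases spend pyrophosphate to move protons into the vacuole, beside the many-subunit vacuolar H+-ATPase, and the resulting gradient drives the exchange of sodium for protons at the vacuolar membrane. Both pump families are known from many plants as part of the machinery that keeps sodium out of the cytosol, and roots are where that sodium enters.

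Roots were harvested 1 month after planting from the salt tolerant strain SR86 (Sea_Rice_86) grown in fresh water (FW) or in salt water (SW), and from the strain R1 (Normal_Rice_R1), labelled as common rice, in FW, with 3 libraries per group, which the methods call biological replicates. The labels give both cultivars as japonica, whereas the paper places SR86 in indica and calls R1 a hybrid. A sentence of the paper's methods puts R1 instead of SR86 in sea water, and the labels were followed. The labels list no R1 library in SW, and the paper states that R1 dies in sea water. The response to SW is thus known for SR86 alone, and each strain is a single line. Values are FPKM, fragment counts scaled to transcript length and to the mapped reads of the library, so that levels of different loci are per length. Comparisons between libraries depend in part on the scaling. A library is named by its group and number, as in SR86 SW1.

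The SR86 FW libraries stood apart from the others in ways that touch both comparisons. The 54 features named LOC_Osm1 summed to 992 to 2518 FPKM in SR86 FW, 222 to 541 FPKM in R1 FW and 244 to 568 FPKM in the SW libraries. The 11 nuclear photosynthesis genes used as markers of green tissue summed to 70.0 to 137 FPKM in SR86 FW, 30.1 to 48.2 FPKM in R1 FW and 29.1 to 42.1 FPKM in the SW libraries. None of the 11 was listed at 0, 11 of 11 had a higher mean in SR86 FW than in R1 FW, and 10 of 11 had a lower mean in SR86 SW than in SR86 FW. Between the strains 7 of the 11 did not overlap, beside 50.9% of the genes tested, and between the waters 7, beside 44.9%. The 11 were chosen among genes that the study's tables annotate. Those tables include lists of genes selected as different in these libraries, so the marker directions and counts are not independent evidence. The root marker locus LOC_Os03g01700 had 261 to 282 FPKM in R1 FW, 105 to 268 FPKM in SR86 FW and 278 to 395 FPKM in SR86 SW, so that SW and FW of SR86 did not overlap. The root marker locus LOC_Os02g51110 had 237 to 296 FPKM in R1 FW and 422 to 521 FPKM in SR86 SW, and in the SR86 FW libraries 1 to 3 it had 151, 551 and 199 FPKM, a range that spans both. How far these differences bear on the pump loci was not tested. In whole roots, fewer cells of a type and less RNA per cell cannot be told apart.

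Levels differed far more between loci than between groups. A7 was the main transcript of the 4 listed H+-ATPases. It had 549 ± 38.2 FPKM (SD, n = 3) in R1 FW, 511 ± 56.6 FPKM in SR86 FW and 594 ± 26.9 FPKM in SR86 SW. Its mean over the 9 libraries, 551 FPKM, ranked 92 among the 23780 genes averaging 0.5 FPKM or more. LOC_Os06g43660 was the most abundant of the 3 listed H+-PPases in fresh water, with 272 ± 27.0 FPKM in R1 and 199 ± 56.8 FPKM in SR86. It ranked 317 over the 9 libraries. LOC_Os02g55890 ranked 840, and A2, A3 and LOC_Os06g08080 ranked from 4118 to 5983. A1 was the least abundant of the 7 in every library and ranked 12525.

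The order of the loci in R1 FW was A7, LOC_Os06g43660, LOC_Os02g55890, A2, A3, LOC_Os06g08080 and A1. Only A3 and LOC_Os06g08080 overlapped as neighbours in that order. In SR86 FW the first 3 loci and A1 kept their places without overlapping their neighbours, and A2, LOC_Os06g08080 and A3 overlapped each other, with means of 22.4, 22.1 and 20.6 FPKM. In SR86 SW the 2 leading H+-PPases overlapped, with LOC_Os06g43660 at 296 ± 92.5 FPKM and LOC_Os02g55890 at 276 ± 208 FPKM. LOC_Os06g08080 followed them there with 67.0 ± 41.0 FPKM, overlapping A2, which overlapped A3.

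**Figure D1:**
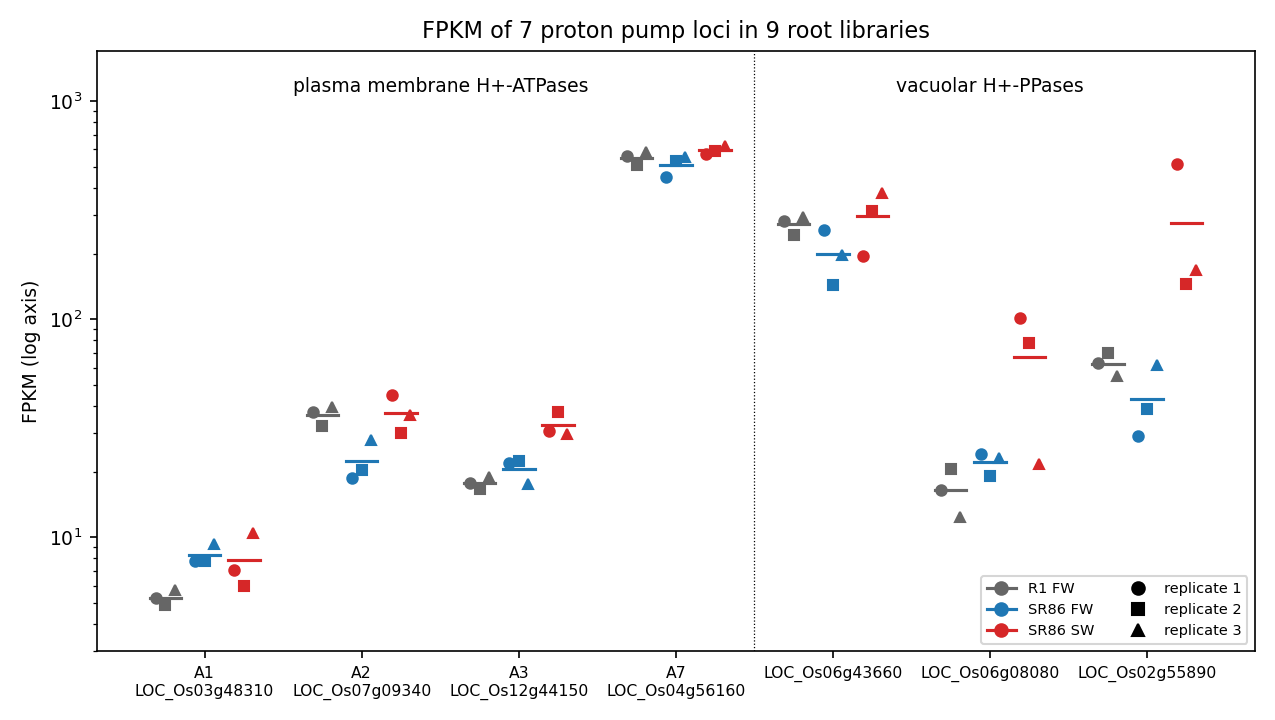
FPKM of the 7 loci on a log axis, with 1 point per library, a horizontal bar at the mean of the 3 libraries of a group, and the group as the colour. A7 lies between 448 and 624 FPKM in all 9 libraries, while LOC_Os02g55890 spreads from 144 to 515 FPKM in SR86 SW and lies at or below 69.9 FPKM in all FW libraries.

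Growth of SR86 in SW was compared with growth in FW to ask which pump transcripts respond to salt. LOC_Os02g55890, a vacuolar H+-PPase, rose 6.40-fold in mean FPKM (3.62-fold without SR86 SW1), and the other 6 loci did not pass both thresholds. A gene was called at a Benjamini-Hochberg adjusted p under 0.05 in limma, run on log2(FPKM + 0.5) over all genes averaging 0.5 FPKM or more, and at a difference of at least 2-fold. All 7 pump loci passed the filter on low values, and by this rule 1 of the 7 was called, beside 12.7% of the 23718 genes tested. The median log2 difference was 0.65 over the 7 loci and 0.17 over all genes tested. That call background was 3012 genes. Leaving out SR86 SW1 lowered it to 60, SR86 FW2 to 358, SR86 SW2 to 623 and SR86 FW1 to 983, whereas leaving out SR86 FW3 gave 3822 and SR86 SW3 gave 3090.

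**Figure D2:**
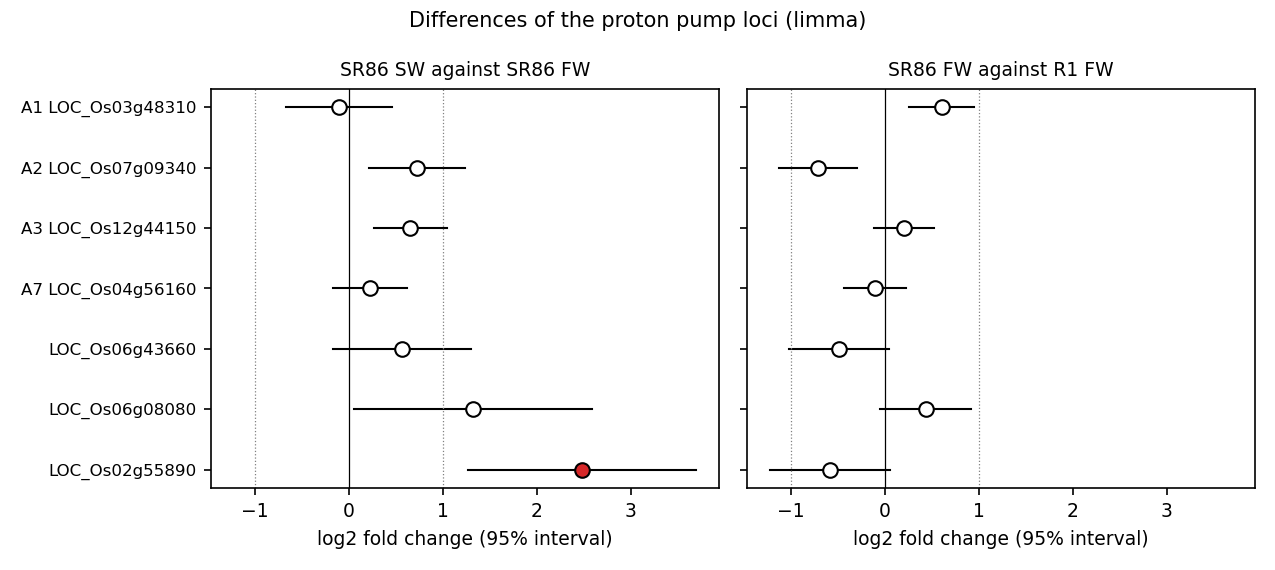
Log2 fold change of each locus with its 95% interval from limma, for SR86 SW against SR86 FW (left) and SR86 FW against R1 FW (right), where a filled point was called and dotted lines mark 2-fold. LOC_Os02g55890 in SW is the single filled point, at 2.48, and the intervals of the H+-ATPases are narrower than those of the H+-PPases on the left.

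LOC_Os02g55890 had 29.3, 38.8 and 61.4 FPKM in the SR86 FW libraries 1 to 3 and 515, 144 and 169 FPKM in the SR86 SW libraries 1 to 3. The lowest SW value was thus above the highest FW value, and SR86 SW1 was far above the other SW libraries. The log2 difference was 2.48 (standard error 0.51, 95% interval 1.27 to 3.69, limma adjusted p = 0.0260). The call did not survive the loss of most single libraries. The limma adjusted p rose to 0.0607 without SR86 SW1 and 0.0543 without SR86 SW2, and to 0.0770 without SR86 FW1 and 0.0872 without SR86 FW2. It was 0.0343 without SR86 SW3 and 0.0239 without SR86 FW3, where the call held. The log2 difference lay between 1.91 and 2.82 in these fits, and over all alternatives the limma adjusted p ran from 0.00514 to 0.132. In R1 FW this locus had 62.7, 69.9 and 54.7 FPKM, so each SW library of SR86 was also above each R1 library, where strain and water both differ. SR86 FW1, lowest for this locus, had the highest green tissue marker sum, and SR86 FW3, highest of the FW libraries of SR86 for it, had the lowest of the 3, and the part of this in the result was not tested.

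LOC_Os06g08080, a second vacuolar H+-PPase, had 24.1, 19.1 and 23.1 FPKM in SR86 FW and 102, 77.8 and 21.7 FPKM in SR86 SW. SR86 SW1 and SR86 SW2 were above every FW library, but SR86 SW3 lay among them. The log2 difference was 1.32 (standard error 0.53, 95% interval 0.053 to 2.59, limma adjusted p = 0.116). Without SR86 SW3 it was 1.99 with a limma adjusted p of 0.00944, which would be a call, and over all alternatives the adjusted p ran from 0.00944 to 0.397. Whether this locus was called thus turned on SR86 SW3.

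LOC_Os06g43660, the most abundant of the 3 H+-PPases in FW, had 256, 143 and 197 FPKM in SR86 FW and 196, 313 and 378 FPKM in SR86 SW. The groups overlapped, and the library with the lowest SW value, SR86 SW1, was the one with the highest value of the other 2 H+-PPases. The log2 difference was 0.56 (95% interval -0.18 to 1.30, limma adjusted p = 0.221). This interval holds a rise of over 2-fold as well as no change.

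**Figure D3:**
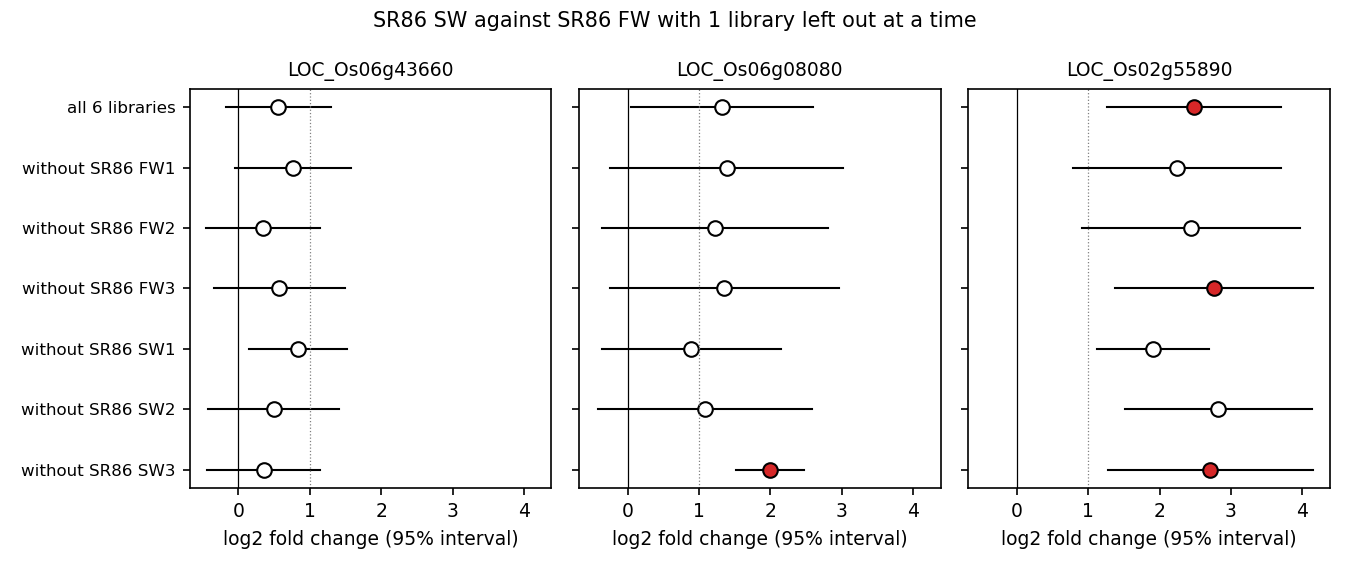
Log2 fold change with its 95% interval for the 3 H+-PPases in SR86 SW against SR86 FW, with all 6 libraries and with each library left out in turn, where a filled point was called and the dotted line marks 2-fold. LOC_Os02g55890 stays at or above 1.91 but is filled in only 3 of 7 fits, and LOC_Os06g08080 is filled only without SR86 SW3.

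The share of each locus in the summed FPKM of the listed loci of its family is not altered by a common scaling factor of a library. For LOC_Os02g55890 and LOC_Os06g43660 this share did not overlap between the waters. The shares of a library add up to the whole, so a higher share of a locus lowers the others, and these are not separate changes. With 3 against 3 libraries an exact permutation test could not give a p below 0.1. LOC_Os02g55890 made up 9.46%, 19.3% and 21.8% of the summed FPKM of the 3 H+-PPases in the SR86 FW libraries 1 to 3, and 63.4%, 27.0% and 29.6% in the SR86 SW libraries 1 to 3. SR86 SW1 was far above the other SW libraries, and SR86 SW2 was only slightly above SR86 FW3. LOC_Os06g43660 made up 82.8%, 71.2% and 70.0% in SR86 FW and 24.1%, 58.5% and 66.5% in SR86 SW, lower in each SW library than in any FW library of SR86. Its mean level was not lower in SW, with 199 FPKM in SR86 FW and 296 FPKM in SR86 SW and overlapping libraries. LOC_Os06g08080 made up 7.77%, 9.51% and 8.22% in SR86 FW and 12.5%, 14.5% and 3.82% in SR86 SW, with overlap. In R1 FW it held 3.43% to 6.21%, below each SR86 FW library, and it was the one H+-PPase whose share did not overlap between the strains. In R1 FW LOC_Os06g43660 held 72.8% to 81.4% and LOC_Os02g55890 held 15.1% to 21.0%.

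Summed over the 3 loci, H+-PPase transcripts reached 310, 201 and 281 FPKM in SR86 FW and 813, 535 and 569 FPKM in SR86 SW. The sum of the 4 H+-ATPases was 496, 580.4 and 611 FPKM in SR86 FW and 654, 662 and 700.5 FPKM in SR86 SW. The ratio of the H+-PPase sum to the H+-ATPase sum was 0.560 to 0.593 in the R1 libraries. In SR86 it was 0.624, 0.346 and 0.460 in FW against 1.24, 0.808 and 0.812 in SW. Each SW library thus had a higher ratio than any FW library of either strain. Of the H+-PPase sum, the called locus LOC_Os02g55890 made up 63.4%, 27.0% and 29.6% in the SR86 SW libraries 1 to 3. The higher ratio is therefore not separate from the rise of that locus. LOC_Os06g43660 had 196, 313 and 378 FPKM in them, below R1 FW (242 to 294 FPKM) in SR86 SW1 and above it in the others. The ratio without LOC_Os02g55890 was not computed.

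**Figure D4:**
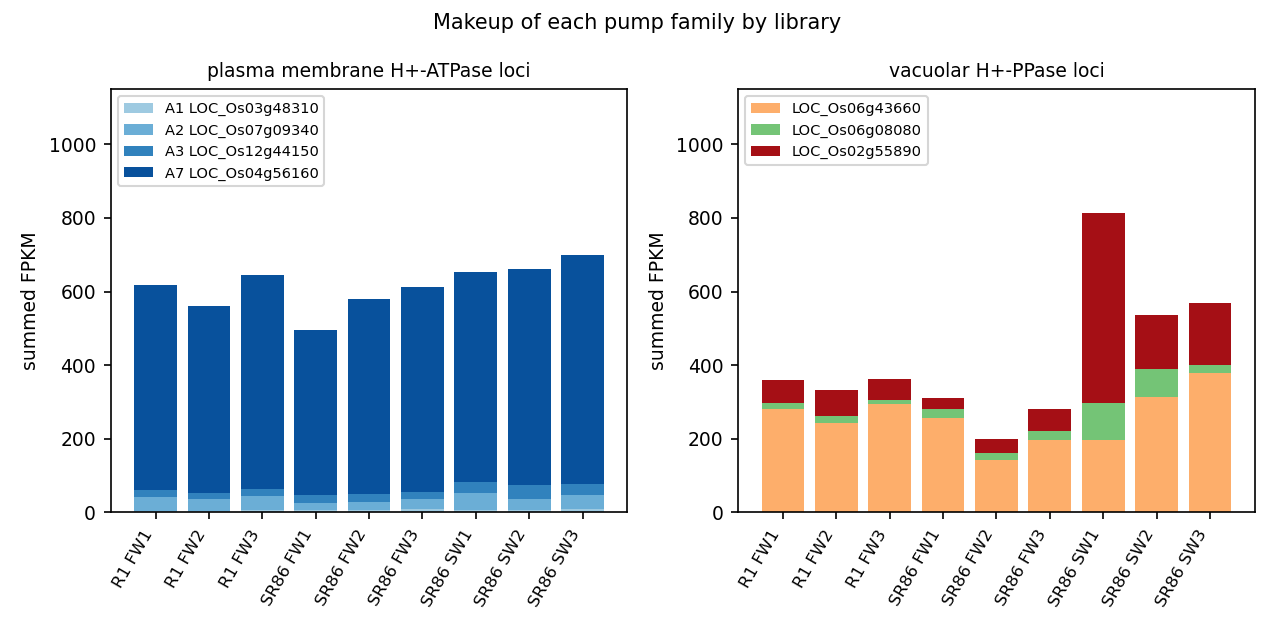
Summed FPKM of the 4 plasma membrane H+-ATPases (left) and the 3 vacuolar H+-PPases (right) in each library, with the loci stacked. The H+-ATPase bars run from 496 to 700.5 FPKM and are mostly A7, while the H+-PPase bars run from 201 to 361 FPKM in FW and from 535 to 813 FPKM in SW.

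Among the H+-ATPases, differences between the waters stayed under 2-fold. A2 had 18.8, 20.4 and 28.0 FPKM in SR86 FW and 45.05, 30.2 and 36.5 FPKM in SR86 SW, without overlap. Its log2 difference was 0.72 (95% interval 0.21 to 1.24, limma adjusted p = 0.0569). A3 had 22.0, 22.4 and 17.5 FPKM in FW and 30.8, 37.45 and 29.8 FPKM in SW, also without overlap. Its log2 difference of 0.65 (95% interval 0.26 to 1.04) had a limma adjusted p of 0.0389, under the p threshold but under 2-fold, and that p lay between 0.0524 and 0.119 when any library was left out.

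A7 had 448, 529.8 and 556 FPKM in SR86 FW and 571, 588 and 624 FPKM in SR86 SW. Every SW value was above every FW value, by little, with a log2 difference of 0.22 (95% interval -0.18 to 0.62, limma adjusted p = 0.358). The median over all genes tested was 0.17, and it was 0.017 with median-ratio size factors and 0.014 with quantile normalization. The log2 difference of A7 was 0.050 and 0.57 under these settings. A1 had 7.81, 7.82 and 9.34 FPKM in FW and 7.05, 6.01 and 10.5 FPKM in SW, with overlap. Its log2 difference was -0.11 (95% interval -0.67 to 0.45, limma adjusted p = 0.756) and became 0.051 without SR86 SW2. The intervals of A1 and A7 lie within 2-fold in both directions.

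Of the 7 loci, 4 had SW and FW libraries that did not overlap, beside 44.9% of the genes tested. They were LOC_Os02g55890, A2, A3 and A7. A7 remained the main transcript of the 4 H+-ATPases in both waters, with 90.2% to 91.3% of their summed FPKM in FW and 87.3% to 89.0% in SW. The A7 share was lower in each SW library than in any SR86 FW library, while the shares of A2 and A3 overlapped between the waters.

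SR86 and R1 were then compared in FW, where both strains grow, to ask whether their pump transcripts differ without salt. None of the 7 loci was called, beside 14.1% of the 23168 genes tested in limma. Of the 7, 2 had an unadjusted limma p under 0.05, beside 44.1% of all genes tested. With 7 loci these counts do not set the pumps apart from other genes. The call background of 3261 genes fell to 1646 without R1 FW1 and to 1853 without R1 FW3. The same 3 SR86 FW libraries serve in both comparisons, so a value that was low in them appears as lower in SR86 here and as higher in SW above. The median log2 difference was -0.11 over the 7 loci and -0.033 over all genes tested.

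The 2 loci nearest to a call were H+-ATPases that differed in opposite directions. A2 had 37.7, 32.5 and 39.5 FPKM in R1 FW, each above the 18.8 to 28.0 FPKM of SR86 FW, and a log2 difference of -0.71 (95% interval -1.13 to -0.29, limma adjusted p = 0.0271). The SR86 SW values of A2, from 30.2 to 45.05 FPKM, overlapped those of R1 FW. A1 had 5.27, 4.9 and 5.72 FPKM in R1 FW, each below the 7.81 to 9.34 FPKM of SR86 FW, with a log2 difference of 0.60 (95% interval 0.26 to 0.95, limma adjusted p = 0.0245). Both changes were under 2-fold, and with a library left out the adjusted p rose to 0.111 for A2 and 0.118 for A1. A1 and A2 were the 2 of the 7 loci without overlap between the strains, beside 50.9% of the genes tested.

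The shares within the H+-ATPase family shifted the same way. A2 made up 5.80% to 6.11% of the summed FPKM in R1 FW and 3.52% to 4.59% in SR86 FW, and A1 made up 0.853% to 0.886% in R1 FW and 1.35% to 1.57% in SR86 FW. These ranges did not overlap.

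The other 5 loci did not pass the p threshold between the strains. A7 had 557, 507 and 582 FPKM in R1 FW, overlapping SR86 FW, and a log2 difference of -0.11 (95% interval -0.44 to 0.22, limma adjusted p = 0.579). A3 had 17.8, 16.7 and 18.9 FPKM in R1 FW and a log2 difference of 0.20 (95% interval -0.12 to 0.52, limma adjusted p = 0.282). For both, the interval excludes a 2-fold difference in either direction.

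The 3 H+-PPases overlapped between the strains. LOC_Os06g43660 had 281, 242 and 294 FPKM in the R1 libraries and a log2 difference of -0.49 (95% interval -1.02 to 0.041, limma adjusted p = 0.137). LOC_Os06g08080 had 16.4, 20.7 and 12.4 FPKM in the R1 libraries and a log2 difference of 0.43 (95% interval -0.052 to 0.92, limma adjusted p = 0.146). LOC_Os02g55890 was lower in SR86 FW by 0.59 on the log2 scale (log2 difference -0.59, 95% interval -1.23 to 0.053, limma adjusted p = 0.138), and SR86 FW3 lay among the R1 values. Without SR86 FW3 the log2 difference of LOC_Os02g55890 was -0.87 with a limma adjusted p of 0.00981, in a range of 0.00981 to 0.381 over all alternatives.

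Spread between replicates differed by group and locus. In R1 FW the coefficient of variation of the 7 loci ran from 6.15% to 12.2%, apart from LOC_Os06g08080 at 25.0%. In SR86 SW it was 4.52% for A7, 61.2% for LOC_Os06g08080 and 75.2% for LOC_Os02g55890. The 2 H+-PPases with the largest differences between waters were therefore also the least reproducible in SW, and they did not share their order of libraries, since LOC_Os06g08080 was lowest in SR86 SW3 and LOC_Os02g55890 in SR86 SW2.

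Taken as profiles over the 9 libraries, A2 and A7 were the most similar pair of pump loci. The root mean square difference of their centred log2 values was 0.32, and that of A1 and A7 was 0.34. Within the H+-PPases, LOC_Os06g08080 and LOC_Os02g55890 differed by 0.77, and each differed from LOC_Os06g43660 by over 1, at 1.06 and 1.19. LOC_Os06g43660 was nearer to A7, at 0.37, than to either H+-PPase. These values are descriptions over 9 libraries that share 3 groups, and loci with small changes come out as similar to each other.

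Outside the pump loci, the genes most similar in profile to LOC_Os02g55890 among 23779 genes were LOC_Os03g46860, annotated as a helix-loop-helix DNA-binding protein, and LOC_Os12g33160, annotated as RGH1A. Their root mean square differences from it were 0.28 and 0.29 over the 9 libraries. LOC_Os03g46860 had 0.05 to 0.56 FPKM in the 6 FW libraries and 6.17, 2.23 and 2.16 FPKM in the SR86 SW libraries 1 to 3. LOC_Os12g33160 had 0.06 to 0.52 FPKM in the FW libraries and 4.92, 1.9 and 2.62 FPKM in SW. Both were picked for likeness over these same libraries, so their high SR86 SW1 value follows from the choice. Their levels were far below that of the H+-PPase. Their FW values lay near or below the 0.5 FPKM added before taking logs, so their log2 profiles depend on that constant.

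The tables of the study annotate 3 more proton pump loci and 2 loci for 14-3-3 proteins, which bind and activate phosphorylated plasma membrane H+-ATPases. Since those tables list genes that the study selected as different in these libraries, neither the directions of these 5 loci nor the number called are independent evidence. Between the waters 2 of the 5 were called, 1 higher and 1 lower in SW, beside 12.7% of all genes tested. Between the strains 3 were called, all higher in SR86, beside 14.1% of all genes tested.

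LOC_Os01g23580, also annotated as an inorganic H+ pyrophosphatase, went the opposite way to LOC_Os02g55890 between the waters. It had 44.3, 41.8 and 43.9 FPKM in R1 FW, 17.25, 24.4 and 26.85 FPKM in SR86 FW, and 5.73, 8.29 and 12.05 FPKM in SR86 SW. The 3 groups did not overlap, with R1 FW highest and SR86 SW lowest. The log2 difference between waters was -1.38 (limma adjusted p = 0.0281, standard error 0.30), and the adjusted p was 0.0542 without SR86 FW1, 0.0941 without SR86 FW2, 0.0896 without SR86 SW1 and 0.0814 without SR86 SW2, in a range of 0.00511 to 0.124 over all alternatives. Between the strains it was -0.93 (limma adjusted p = 0.0120), under 2-fold, and -1.06 without SR86 FW3, where it was called.

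The vacuolar H+-ATPase is represented by 2 loci. LOC_Os07g36465, annotated as subunit H, which belongs to the ATP-splitting sector of the pump, had 3.36, 3.19 and 17.7 FPKM in SR86 FW and 41.0, 24.2 and 34.1 FPKM in SR86 SW. It rose by a log2 difference of 2.37 (limma adjusted p = 0.0412, standard error 0.61), and of the fits with a library left out only the one without SR86 FW3 called it, at 3.12. The limma adjusted p was 0.112 without SR86 FW1, 0.121 without SR86 FW2, 0.130 without SR86 SW1, 0.0892 without SR86 SW2 and 0.0851 without SR86 SW3, in a range of 0.00729 to 0.194 over all alternatives. In R1 FW it had 25.0, 18.2 and 28.6 FPKM, above SR86 FW and overlapping SR86 SW, and the difference between the strains of -1.92 had a limma adjusted p of 0.0587. Leaving out SR86 FW3 made it a call, at -2.67 with a limma adjusted p of 0.000896, as did the replicate block and fitting the 9 libraries jointly, and the adjusted p ran from 0.000896 to 0.234 over all alternatives.

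LOC_Os04g51270, annotated as subunit G of the same pump, had 97.7, 104.5 and 84.2 FPKM in R1 FW, 204, 189.7 and 232 FPKM in SR86 FW, and 201, 167 and 120.1 FPKM in SR86 SW. It was higher in SR86 than in R1 in FW, without overlap, by a log2 difference of 1.12 (limma adjusted p = 0.00236, standard error 0.13). All 6 fits with a library left out called it. With quantile normalization the log2 difference was 0.95, just under 2-fold. Between the waters it overlapped (log2 difference -0.38, limma adjusted p = 0.226), so the 2 subunits did not move together.

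Of the 14-3-3 loci, LOC_Os08g37490 had 151, 171 and 126 FPKM in R1 FW, 377, 390.1 and 212 FPKM in SR86 FW and 227, 228 and 191 FPKM in SR86 SW. Its log2 difference between the strains was 1.09 (limma adjusted p = 0.0258, standard error 0.26). The call held with a library left out only without SR86 FW3. The limma adjusted p was 0.0932 without R1 FW1, 0.0553 without R1 FW2, 0.102 without R1 FW3, 0.0625 without SR86 FW1 and 0.0755 without SR86 FW2, in a range of 0.00214 to 0.117 over all alternatives. LOC_Os11g39540 was listed at 0 in all R1 FW libraries and had 5.38, 4.91 and 3.83 FPKM in SR86 FW and 2.49, 2.56 and 1.91 FPKM in SR86 SW. It was called between the strains in every fit, and its log2 difference between the waters was -0.88 (limma adjusted p = 0.0418), under 2-fold. With quantile normalization it was -1.18, with median-ratio size factors -1.03 and without SR86 FW3 -1.01, where both thresholds were passed, with limma adjusted p-values from 0.0103 to 0.127 over all alternatives. Reads of both strains were mapped to 1 reference transcript set, so a value of 0 in a strain cannot be told apart from sequence that differs and maps poorly.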

How the data were processed

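Root mRNA libraries were made with a stranded kit, and per the labels and methods trimming by the authors was followed by Bowtie2 mapping to MSU6 transcripts and quantification by RSEM, which divides a read shared by several transcripts among them. Values of near-identical family members are uncertain for that reason. The deposited values are FPKM, rounded to 2 decimals, with 1 column for each of the 9 libraries and 0 unmapped columns. Read counts and depth could not be recovered from the rounded values, so no count test was run, and the number of reads behind a value is unknown. Of the feature names, 0 were found in the RefSeq gene table, so no coordinates or sequences are given.

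Groups followed the labels. Genes averaging 0.5 FPKM or more over the 6 libraries of a comparison were fitted as log2(FPKM + 0.5) with limma 3.58.1 (trend of variance on mean) in R 4.3.3, which understates fold changes of low genes. Standard errors and 95% intervals are from that fit, and p-values were adjusted over all genes tested. With 3 against 3 libraries an exact permutation test cannot give a p below 0.1. The named loci were the 7 pump loci, the 5 further loci annotated in the study's tables as H+ pyrophosphatase, vacuolar H+-ATPase subunit or 14-3-3, and the 2 genes nearest in profile to each called pump locus. The members, lists and alternatives were chosen with earlier results of these data known. Other settings tried were a pseudocount of 0.1 or 1, a filter at 1 FPKM or none, median-ratio size factors, quantile normalization, a fit of all 9 libraries, replicate number as a block, and each library left out. A fit where a group has 2 libraries takes its spread from all libraries in the fit. On simulated data for SR86 SW against SR86 FW with 23718 genes, 62.5% of 200 genes changed by 2 on the log2 scale were called, and 3.85% of the calls were unchanged genes. The simulated noise was independent between genes and libraries, and only those 200 genes were changed, whereas 3012 were called in the real comparison. The simulated rates are therefore not the error rates of that comparison. Python 3.11.15, pandas 2.3.3, numpy 2.4.6 and matplotlib 3.10.9 were used.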

Additional observations from a re-analysis of the deposited data

How the results depend on the processing

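Between SR86 SW and SR86 FW, 3012 genes were called, 174 with no filter and 60 to 3822 with a library left out. Of the 7 pump loci 1 was called, 0 with no filter, 0 with replicate number as a block, and 0 to 2 with a library left out. Between SR86 FW and R1 FW, 3261 genes were called, 1917 with no filter and 1646 to 4761 with a library left out, and 0 pump loci in every alternative. Of the genes called between the waters 66.2% were higher in SW as deposited, 47.6% with quantile normalization and 51.2% with median-ratio size factors. The log2 fold change of LOC_Os03g48310 (A1) between the waters was -0.11, lay between -0.33 and 0.051 in fits that left out a library, and was positive only without SR86 SW2, and no other pump locus turned its direction under an alternative. The cause of these changes was not tested. Deviations of samples with the same replicate number from their group means had correlations of -0.057 to 0.15 between the waters and -0.034 to 0.26 between the strains. Samples with different numbers had -0.19 to 0.20 and -0.36 to 0.21. Deviations within a group of 3 cancel out, so these correlations do not settle whether the libraries were paired. With the replicate block the counts of calls were 2048 and 3489, and the limma adjusted p of LOC_Os02g55890 between the waters was 0.0506 in place of 0.0260. Depth could not be had from the values, so no counting error is given.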
